A study of Mus musculus with 147 samples.

Results

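Growth factors that act on the vessel wall were followed in single renin cells of the mouse kidney and in their counterparts that cannot make renin. The members are 10 genes, taken by symbol from a table of 35438 genes: *Vegfa*, *Vegfb*, *Vegfc*, *Vegfd* and *Pgf* of the VEGF family, *Angpt1*, *Angpt2* and *Angpt4* of the angiopoietin family, and *Hgf* and *Fgf2*. All 10 were listed in the files of both genotypes. The rule names the genes and uses no measured value, although earlier results of these data were known when it was made. *Angpt2* was the member found in the most *Renin*-null wells, *Angpt4* had the highest level per transcript length in WT wells, and nearly all *Vegfa* counts lay in 3 *Renin*-null wells that also held podocyte transcripts.

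WT renin cells came from adult *Ren1c+/+;Ren1c-YFP* mice and *Renin*-null cells from adult *Ren1c-/-;Ren1c-YFP* mice, which lack both functional copies of the renin gene. The YFP reporter was present in both groups and is read from the upstream control region of *Ren1c*, so that sorting on YFP collects cells in which this region is active whether or not renin is made. The mice were C57BL/6 of both sexes, cells of several mice were pooled, the *Renin*-null pups received saline injections after birth, and the cells were sorted from kidney cortex. Each cell was held in a well of the Fluidigm C1 System and its polyadenylated RNA was copied to cDNA over the full length by SMART-Seq v4. There were 51 WT wells and 96 *Renin*-null wells, the latter in the sequencing libraries YFP1 and YFP2 with 48 wells each.

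VEGF-A binds the receptor KDR (VEGFR2) on endothelial cells and is the main signal for their growth and survival, while VEGF-B and PlGF, the product of *Pgf*, bind FLT1, and VEGF-C and VEGF-D bind FLT4 of lymphatic vessels. Angiopoietins act on the receptor TEK (TIE2): ANGPT1, typically made by pericytes and other mural cells, activates it and keeps vessels quiet, ANGPT2 acts as an antagonist or weak agonist depending on context, and ANGPT4 is an agonist. In the kidney, podocytes are the best known source of VEGF-A for the glomerular capillaries, and renin cells sit in the wall of the afferent arteriole as a specialised kind of mural cell.

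The proximal promoters of 3 members are shown because these ligands led the *Renin*-null wells per transcript length together with *Angpt2*, which the sequence table did not hold. Each is the 250 bases before the RefSeq start on GRCm38.p6, 5′ to 3′ on the coding strand, and 8 of the 10 members had such a sequence. The positions are chr17:46032378-46032627 on the minus strand for *Vegfa*, chr12:85177314-85177563 on the minus strand for *Pgf* and chr2:151910957-151911206 on the plus strand for *Angpt4*. Capitals mark the GC box GGGCGG and the TATA box TATAAA, searched on both strands, so that CCGCCC is a GC box on the other strand.
Vegfa: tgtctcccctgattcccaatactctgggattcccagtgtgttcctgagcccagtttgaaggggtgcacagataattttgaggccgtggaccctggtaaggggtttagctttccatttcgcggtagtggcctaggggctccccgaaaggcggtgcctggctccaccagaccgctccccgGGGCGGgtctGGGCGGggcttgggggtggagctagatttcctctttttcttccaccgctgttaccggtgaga
Pgf: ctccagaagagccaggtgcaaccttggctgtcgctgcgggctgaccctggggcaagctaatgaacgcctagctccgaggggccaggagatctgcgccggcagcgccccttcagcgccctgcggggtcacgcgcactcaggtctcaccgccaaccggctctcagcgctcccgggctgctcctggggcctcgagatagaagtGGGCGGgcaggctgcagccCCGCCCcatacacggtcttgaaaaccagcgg
Angpt4: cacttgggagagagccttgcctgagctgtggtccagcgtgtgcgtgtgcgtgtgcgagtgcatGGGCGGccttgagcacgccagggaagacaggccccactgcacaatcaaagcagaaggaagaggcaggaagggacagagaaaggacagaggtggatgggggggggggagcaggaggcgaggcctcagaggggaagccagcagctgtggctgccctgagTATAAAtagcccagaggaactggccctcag
The *Angpt4* sequence holds TATAAA with its first base 30 bases before the start, and the *Vegfa* and *Pgf* sequences hold 2 GC boxes each and no TATAAA. Of the 8 promoters, 6 held a GC box, which 32.7% of 32851 mouse promoters hold, and 2 held TATAAA, which 12.4% hold. The core of the hypoxia response element, ACGTG, was in none of the 8 windows and in 16.6% of all. These matches describe letters, not bound sites.

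By the annotation GENCODE M21 on GRCm38, all 10 are protein-coding genes. *Vegfa* (ENSMUSG00000023951) lies at chr17:46016993-46032369 on the minus strand, *Angpt2* (ENSMUSG00000031465) at chr8:18690263-18741562 on the minus strand, *Angpt4* (ENSMUSG00000027460) at chr2:151911210-151945337 on the plus strand and *Pgf* (ENSMUSG00000004791) at chr12:85166635-85177790 on the minus strand. The *Fgf2* gene shares 640 exonic bases, 9.44% of its exonic sequence, with the antisense gene *Nudt6*. Reads of the 2 genes cannot be told apart where strand is not marked. *Nudt6* was listed with 0 counts in WT and 220 counts in *Renin*-null wells.

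The depth differed widely between wells. WT wells held 197904443 counts in all, with 26401 in the shallowest, a median of 1525972 and 17124854 in the deepest. *Renin*-null wells held 398812805 counts, with 3628, 4107950 and 14505243 respectively. The median share of mitochondrial counts was 60.4% in WT and 12.4% in *Renin*-null wells, and 15 WT and 57 *Renin*-null wells with 100000 counts and 1000 genes or more had a mitochondrial share of at most 25%. The labels name no mouse or capture for a well. Each genotype was therefore treated as 1 sample with no test between them, and the effect of genotype cannot be told apart from that of the capture, the sequencing library or the mitochondrial share.

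The labels were checked first. *Ren1*, the gene deleted in the *Renin*-null mice, had 96023 counts per 1000000 counts (CPM) in WT, where all 51 wells held it, and 54 counts in all 96 *Renin*-null wells together, at most 17 in a well. *Akr1b7*, a renin cell marker that does not need renin, had 4528 CPM in WT wells and 2011 CPM in *Renin*-null wells, where 65 of 96 wells held it. A well was said to hold a gene where it had at least 10 counts and at least 10 CPM. *Rgs5*, a mural cell gene, had 11102 and 14156 CPM.

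Some wells stood apart. In 4 pairs of *Renin*-null wells the expression was nearly the same (correlations of 0.970 to 0.987, against 0.894 for the next pair), 3 of these pairs having a well in each library. Their 8 wells held 46.6% of the *Renin*-null counts of *Angpt2*, 63.2% of *Vegfb* and 25.6% of *Pgf*, and through these wells the libraries YFP1 and YFP2 are not independent of each other. Markers of podocytes, endothelium, tubule segments or macrophages summed to at least 1000 CPM in 25 of 96 *Renin*-null wells and in 1 of 51 WT wells. The ratio of each member is given with and without the wells rich in other-cell markers.

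Levels were compared on counts summed over the wells of a genotype, as CPM with exact Poisson intervals (95%) and as the ratio of *Renin*-null over WT. The intervals cover the counting error of reads only. Copies made by PCR cannot be told from separate molecules, so the intervals do not cover the sampling of molecules. They also leave out the differences between wells. A ratio could be formed for 9 of the 10 members. By this measure 4 members (*Vegfa*, *Vegfc*, *Angpt2* and *Fgf2*) were at least 2-fold higher in *Renin*-null wells, against 52.4% of all 18720 genes with a ratio. A further 2 (*Vegfb* and *Angpt4*) were at least 2-fold lower, against 18.5% of all genes. The median log2 ratio was 0.88 over the members and 1.17 over all genes, and the members' shares past 2-fold (44.4% and 22.2% of 9) lay near those of all genes. Taken relative to that median of 1.17, 3 members were at least 2-fold higher and 3 at least 2-fold lower, where 37.6% and 34.6% of all genes were.

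Of the 8 members with a ratio in each library, 4 differed at least 2-fold in the same direction in both. *Vegfa* and *Angpt2* were higher in both, where 33.3% of 16256 genes were. The log2 ratio of *Vegfa* was 3.06 in YFP1 and 8.61 in YFP2, and in YFP1 416 of its 427 counts came from 1 well, which had 14018 CPM of proximal tubule markers. *Vegfb* and *Angpt4* were lower in both, where 15.8% were. The log2 ratio of *Pgf*, *Angpt1* and *Fgf2* had opposite signs in YFP1 and YFP2.

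**Figure D1:**
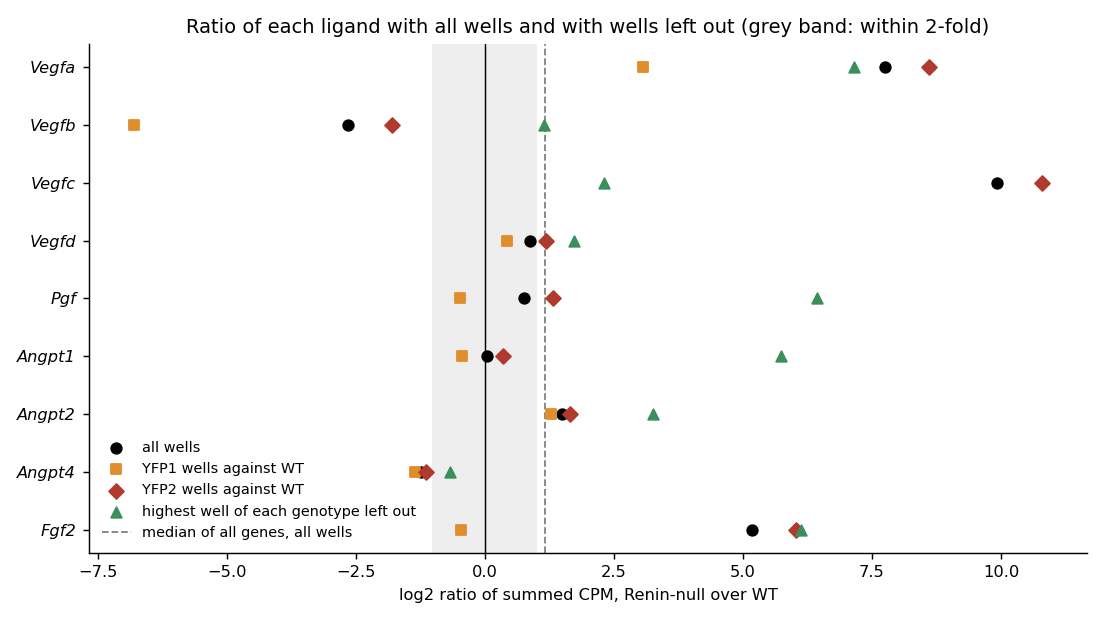
Log2 ratio of summed CPM, *Renin*-null over WT, for the 9 ligands with a ratio: all wells (circles), each library against WT (squares and diamonds) and with the highest well of each genotype left out (triangles). The grey band marks less than 2-fold and the dashed line the median of all genes, 1.17. *Vegfa*, *Vegfd* and *Angpt2* lie above 0 in both libraries and *Vegfb* and *Angpt4* below 0. *Pgf*, *Angpt1* and *Fgf2* lie on opposite sides of 0 in YFP1 and YFP2, and the triangle of *Vegfb* lies above 0, at 1.14.

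Few wells carried most of the counts. Of the 6 members with at least 1000 counts in WT, 5 had over 50% of them in 1 well, and the median share of the top well was 85.8%. The same median over all 6978 genes of that abundance in WT was 63.7%. The top *Renin*-null well held a median of 31.6% over 8 such members, against 45.1% over 10939 genes. A summed level therefore describes a small number of wells for most of these ligands, in particular in WT.

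**Figure D2:**
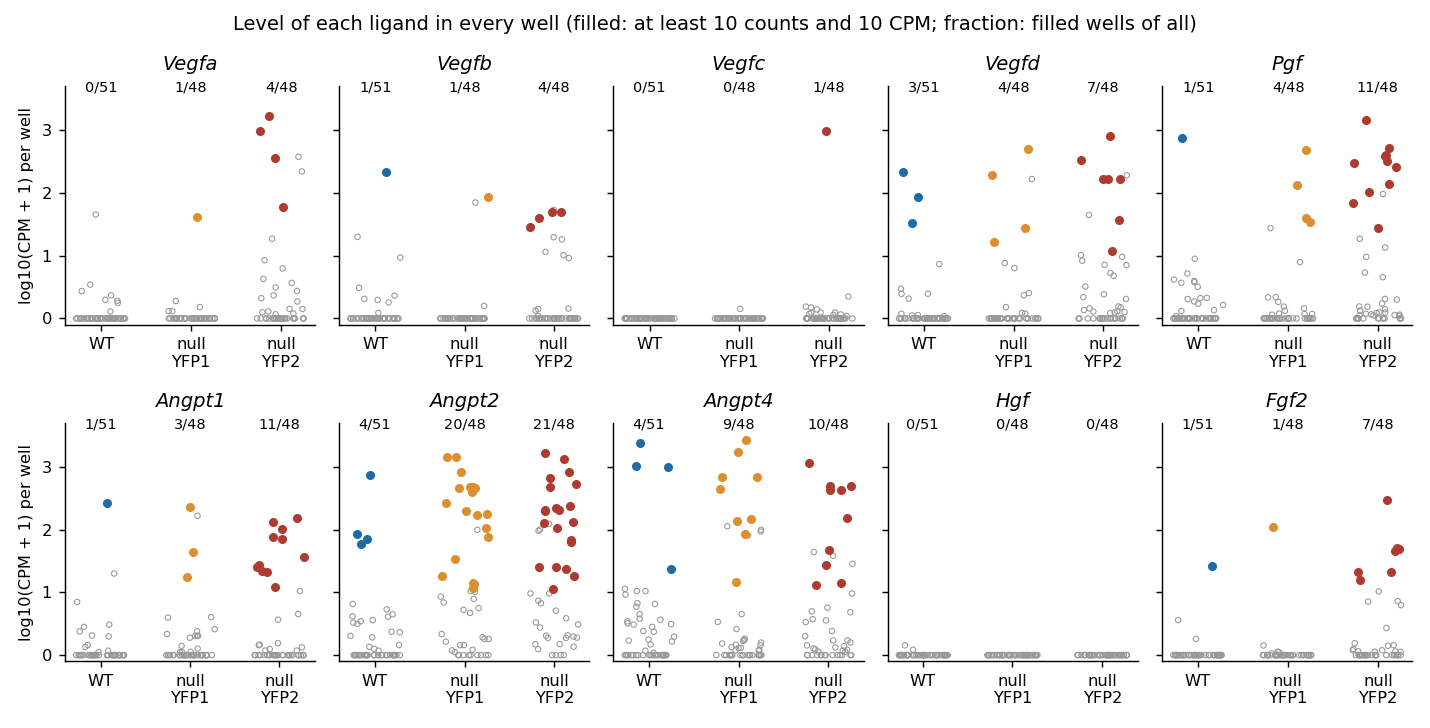
Level of each ligand as log10(CPM + 1) in every well of WT, YFP1 and YFP2, 1 point per well, filled where the well held the ligand; the fractions give filled wells of all wells. *Angpt2* has 20 and 21 filled wells in YFP1 and YFP2 against 4 in WT, whereas *Vegfc* has 1 filled well in all.

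Among the VEGF family, *Vegfa* had the largest gap between genotypes with counts in both. It summed to 56 counts in WT, or 0.283 CPM (0.214 to 0.367), and no WT well held it. The WT well with the most counts had 21 counts (1.72 CPM), the highest by CPM was a shallow well of 157629 counts with 44.4 CPM, and the median well had 0. It summed to 24440 counts, or 61.3 CPM (60.5 to 62.1), in *Renin*-null wells, and the log2 ratio was 7.76 (7.38 to 8.16). Only 5 of 96 *Renin*-null wells held it, however, at 1712, 962, 357 and 59.05 CPM in YFP2 and at 40.1 CPM in YFP1. The first 3 of these wells accounted for 95.8% of the *Renin*-null counts, and the median well had 0 CPM.

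The wells with *Vegfa* were checked for markers of other kidney cells. The podocyte list of 6 genes, among them *Nphs1*, *Podxl* and *Synpo*, summed to 3187, 2521 and 20437 CPM in the first 3 of these wells, in that order. It reached 9.69 and 2.61 CPM in the other 2. Podocyte and mural transcripts occurred together in the first 2 of these wells, which had 35922 and 12262 CPM of the 8 mural markers. The first also had 1441 CPM of mesangial markers, and the second 2000 CPM of endothelial and 574 CPM of proximal tubule markers, with *Nphs1* at 1.27 CPM. The third had 78.9 CPM of mural markers and 0.585 CPM of *Akr1b7*. The well at 59.05 CPM held mesangial markers at 5183 CPM and collecting duct markers at 747 CPM, and the well at 40.1 CPM held proximal tubule markers at 14018 CPM. Thus none of the 5 wells showed mural transcripts without a high sum of another list.

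Over all wells the podocyte list summed to 95.9 CPM in WT, 171 CPM in YFP1 and 1324 CPM in YFP2. Its gene of highest CPM was *Synpo* in WT at 83.2 CPM, where *Podxl* was at 0, and *Cdkn1c* in *Renin*-null wells at 241 CPM. The list reached 1000 CPM in 7 *Renin*-null wells, 6 of them in YFP2, and in 0 WT wells. Of these 7 wells, 3 held *Vegfa* and 5 had at least 1 count of it, the other 2 being wells of 9102 and 15888 counts at 220 and 378 CPM with fewer than 10 counts of *Vegfa*. With the 7 wells left out the log2 ratio of *Vegfa* was 3.30, and with all wells rich in other-cell markers left out it was 2.76. The part of podocyte RNA in the remaining difference was not tested.

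**Figure D3:**
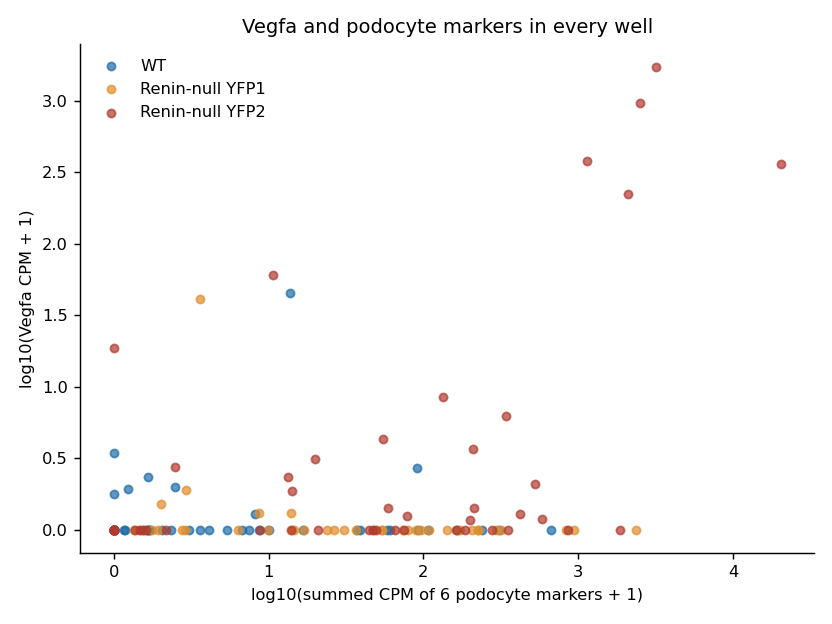
*Vegfa* CPM of each well against the summed CPM of 6 podocyte markers in the same well, both as log10(CPM + 1), 1 point per well of WT, YFP1 and YFP2. The wells at 1712, 962 and 357 CPM of *Vegfa* all lie beyond 1000 CPM of podocyte markers, and the wells at 59.05 and 40.1 CPM lie at 9.69 and 2.61 CPM. The wells at 220 and 378 CPM have fewer than 10 counts of *Vegfa*.

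*Vegfb*, which encodes a FLT1 ligand, summed to 13.5 CPM (13.0 to 14.0) in WT and 2.15 CPM (2.01 to 2.30) in *Renin*-null wells. A single WT well at 219 CPM held 95.7% of the WT counts. In *Renin*-null wells 5 of 96 held it, between 27.5 and 86.1 CPM. The log2 ratio of -2.64 (-2.76 to -2.53) therefore rested on 1 WT well, and with the highest well of each genotype left out it was 1.14. Without the wells rich in other-cell markers it was -5.54. Of the 5 *Renin*-null wells, 2 were a near-identical pair, and 3 had over 9000 detected genes.

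*Vegfc*, a ligand of lymphatic vessels, had 0 counts in all WT wells, where the floor of 3 counts corresponds to 0.0152 CPM. In *Renin*-null wells it summed to 14.7 CPM (14.3 to 15.1), at least 968.5-fold higher than 3 counts over the WT wells. A single YFP2 well with 5825 counts, or 966 CPM, made up 99.5% of them. That well also had 23206 CPM of mural markers, 5351 CPM of *Akr1b7* and 3447 CPM of fibroblast markers. Without the wells rich in other-cell markers the log2 ratio was 10.26 in place of 9.92, both against the floor. With the highest well left out it was 2.31, in thinned wells 4.19, and the difference of mean log2(CPM + 1) was 0.16. In YFP1 *Vegfc* had 2 counts, and no ratio was formed there.

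*Vegfd*, the other FLT4 ligand, was held by 3 of 51 WT wells at 31.9, 84.8 and 213 CPM and by 11 of 96 *Renin*-null wells between 11.1 and 808 CPM, with a median of 166 CPM among those 11. The ranges overlapped. Summed levels were 19.7 CPM (19.0 to 20.3) in WT and 36.2 CPM (35.6 to 36.8) in *Renin*-null wells, a log2 ratio of 0.88 (0.83 to 0.93), with 0.42 in YFP1, 1.18 in YFP2 and 0.96 without the wells rich in other-cell markers. It was 1.74 with the highest well of each genotype left out, 2.17 by the mean of CPM over wells, 2.13 with SCTransform, 2.24 in thinned wells and 0.18 with TMM factors, so its place against 2-fold depended on the measure. All 11 *Renin*-null wells had at least 1000 CPM of mural markers and held *Akr1b7*, where 73 and 65 of all 96 did. Fibroblast markers, which were not among those used to leave out wells, had 4678 CPM in the well of highest *Vegfd* and summed to 14.8 CPM in WT wells and 807 CPM in *Renin*-null wells, where 11 wells reached 1000 CPM. Their part in the *Vegfd* level was not tested.

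*Pgf*, which encodes placental growth factor, was held by 1 WT well at 745 CPM and by 15 *Renin*-null wells between 26.9 and 1482 CPM, 4 of them in YFP1 and 11 in YFP2. The WT well held 98.5% of the WT counts. The summed levels of 46.1 CPM (45.2 to 47.1) and 77.9 CPM (76.99 to 78.7) gave a log2 ratio of 0.76 (0.72 to 0.79), which was -0.47 in YFP1 and 1.32 in YFP2. With the highest well of each genotype left out it was 6.44, since 136 counts then remained in WT, and without the wells rich in other-cell markers it was 0.82. Every one of the 15 *Renin*-null wells with *Pgf* held *Akr1b7* and *Acta2*, the gene of smooth muscle actin, which 65 and 83 of all 96 wells held. All 15 had at least 1000 CPM of mural markers, which 73 of all 96 wells had. The median mural sum was 38085 CPM in these 15 wells and 10711 CPM in the 68 wells of sufficient depth (at least 100000 counts and 1000 genes) without *Pgf*. Their median depth was 7.10e+06 and 4.25e+06 counts. Mural medians were also higher with than without *Vegfd* (37101 and 12480 CPM), *Angpt1* (26985 and 14626), *Angpt4* (32873 and 7686) and *Fgf2* (34950 and 14626). They were lower with *Vegfa* (78.9 and 18533 CPM) and *Vegfb* (10704 and 18533).

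Turning to the angiopoietins, *Angpt1* had nearly the same summed level in both genotypes, 15.8 CPM (15.2 to 16.3) in WT and 16.3 CPM (15.9 to 16.7) in *Renin*-null wells. The log2 ratio was 0.04 (-0.02 to 0.11). The distribution over wells differed. In WT 1 well at 264 CPM held 98.5% of the counts, whereas in *Renin*-null wells 14 of 96 held the gene, between 11.3 and 232 CPM with a median of 39.8 CPM. In 12 of these 14 wells mural markers reached 1000 CPM, as in 73 of all 96. Without the wells rich in other-cell markers the log2 ratio was -0.88, and with the highest well of each genotype left out it was 5.74.

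*Angpt2* was the member held by the most *Renin*-null wells. It was found in 41 of 96 of them (42.7%, exact binomial interval 32.7 to 53.2), 20 in YFP1 and 21 in YFP2. In WT it was found in 4 of 51 wells (7.84%, 2.18 to 18.9), at 57.8, 70.6, 83.8 and 751 CPM. In the 41 *Renin*-null wells the lowest value was 10.5 CPM, the median 197 CPM and the highest 1680 CPM. The WT values thus lay within the range of the *Renin*-null wells. The median over all wells was 0 CPM in WT wells and 8.93 CPM in *Renin*-null wells.

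The summed level of *Angpt2* was 60.3 CPM (59.2 to 61.4) in WT and 171 CPM (170 to 172) in *Renin*-null wells, a 2.83-fold difference with a log2 ratio of 1.5 (1.47 to 1.53). It was 1.29 in YFP1 and 1.66 in YFP2. Of the WT counts, 75.9% came from 1 well, and of the *Renin*-null counts 18.4%. Counting each near-identical pair once gave 1.24, and leaving out the wells rich in other-cell markers gave 0.96. Library scaling by TMM gave 0.80. These last 2 values are below 2-fold. Leaving out the highest well of each genotype gave 3.27, the mean of CPM over wells 3.04 and thinned wells 3.34, so the direction was the same in each case but the size was not.

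The share of wells with *Angpt2* was also taken by depth and by mitochondrial share. After each well was thinned to 100000 counts, which leaves out 3 WT and 13 *Renin*-null wells, at least 1 count of *Angpt2* was found in 5 of 48 WT wells (10.4%) and in 43 of 83 *Renin*-null wells (51.8%). Unthinned, 4 of these 48 WT wells (8.33%) and 41 of these 83 *Renin*-null wells (49.4%) held it. At least 1 count was found in 21 of all 51 and 83 of all 96 wells without thinning. Among the wells of sufficient depth with at most 25% mitochondrial counts, 4 of 15 WT wells (26.7%, 7.79 to 55.1) and 25 of 57 *Renin*-null wells (43.9%, 30.7 to 57.6) held *Angpt2*. These intervals are over wells that share mice and captures and give no test between the genotypes. Among the wells above 25%, 0 of 33 WT wells and 16 of 26 *Renin*-null wells did. In these 16 wells *Angpt2* had a median of 231 CPM. Their mural markers had a median of 1423 CPM and reached 1000 CPM in 11 of the 16, while the median over all *Renin*-null wells was 13575 CPM.

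**Figure D4:**
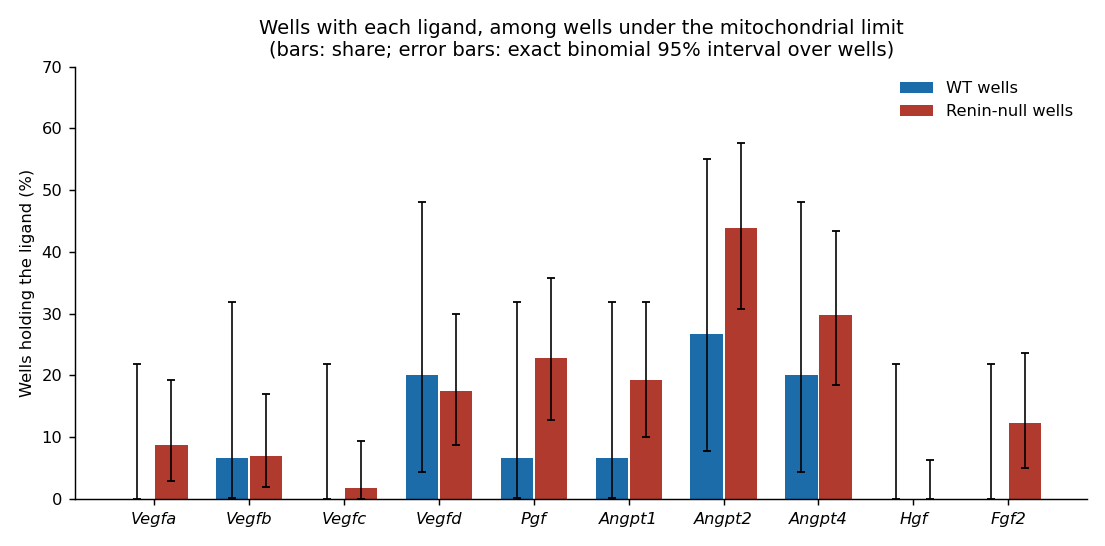
Share of wells holding each ligand among the 15 WT and 57 *Renin*-null wells with at most 25% mitochondrial counts, with exact binomial 95% intervals over wells. *Angpt2* has the tallest bar in both genotypes, 26.7% and 43.9%. The intervals are over wells of 1 sample per genotype and are no test between the genotypes.

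*Angpt4* summed to 211 CPM (209 to 213) in WT, where it led the members per transcript length, and had 90.1 CPM (89.1 to 90.99) in *Renin*-null wells. The log2 ratio was -1.23 (-1.25 to -1.21), with -1.35 in YFP1, -1.14 in YFP2 and -0.91 without the wells rich in other-cell markers. In WT it was held by 4 wells, at 2458, 1022, 993 and 22.9 CPM, and the first 3 carried 99.6% of the counts. In *Renin*-null wells 19 of 96 held it, between 12.1 and 2662 CPM with a median of 422 CPM. The WT wells lay within that range.

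The direction for *Angpt4* depended on how wells were weighted. A smaller share of WT wells (7.84%, 2.18 to 18.9) than of *Renin*-null wells (19.8%, 12.4 to 29.2) held it, although the summed level was higher in WT. Among the wells with at most 25% mitochondrial counts the shares were 3 of 15 (20%) and 17 of 57 (29.8%). When every well counted equally, by the mean of CPM over wells, the log2 ratio was 0.27 in place of -1.23. The 4 WT wells with *Angpt4* had *Ren1* and *Akr1b7* together at 60157, 5932, 6527 and 51421 CPM, in the order above, and the median WT well had 22613 CPM, so that they lay on both sides of it. All 19 *Renin*-null wells had at least 1000 CPM of mural markers and 17 of them held *Akr1b7*, against 73 and 65 of all 96.

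Of the remaining growth factors, *Hgf*, the ligand of the receptor MET, had 2 counts in WT and 0 in *Renin*-null wells, so no ratio was formed. The floor of 3 counts corresponds to 0.00752 CPM in *Renin*-null wells. *Fgf2*, a heparin-binding fibroblast growth factor, summed to 62 counts in WT, 0.313 CPM (0.240 to 0.402), of which 48 lay in 1 well. It reached 11.3 CPM (10.9 to 11.6) in *Renin*-null wells and was held by 8 wells, 1 in YFP1 and 7 in YFP2, between 14.6 and 300.2 CPM. The log2 ratio of 5.17 (4.81 to 5.55) came from YFP2, where it was 6.03, while in YFP1 it was -0.47. The highest well, with 56.3% of the *Fgf2* counts, was also the highest *Vegfa* well. Without the wells rich in other-cell markers the log2 ratio was 3.19, with the highest well of each genotype left out 6.12, and in wells within the depth, gene and mitochondrial limits 7.42.

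Levels of the members were set against each other only per transcript length, as counts per kilobase of the median annotated transcript and per 1000000 such units. In WT *Angpt4* led at 92.5, followed by *Pgf* at 33.6, *Angpt2* at 29.3, *Vegfd* at 13.5, *Vegfb* at 11.9 and *Angpt1* at 5.57. *Fgf2* and *Vegfa* were below 1, at 0.634 and 0.331. In *Renin*-null wells *Angpt2* led at 87.3, followed by *Vegfa* at 75.4, *Pgf* at 59.6, *Angpt4* at 41.5, *Vegfc* at 28.4, *Vegfd* at 26.3 and *Fgf2* at 24.0, with *Angpt1* at 6.04 and *Vegfb* at 2.00. The order changed with the library. *Angpt2*, *Angpt4* and *Pgf* led YFP1 at 75.8, 38.4 and 25.6, where *Vegfa* had 2.91, and *Vegfa*, *Angpt2* and *Pgf* led YFP2 at 135, 96.7 and 87.7. With no replicate of a genotype, the order of neighbours cannot be set against their spread. With the longest transcript in place of the median one, the *Renin*-null order changed, with *Angpt4* at 79.6, *Pgf* at 77.3, *Vegfa* at 36.7 and *Fgf2* at 3.89. In YFP2 *Pgf* then led at 115.5, before *Angpt2* at 111.6, *Angpt4* at 85.9 and *Vegfa* at 66.8. *Angpt4* still led WT, at 153.8. There *Vegfb* at 17.9 passed *Vegfd* at 16.3, and *Vegfa* at 0.139 passed *Fgf2* at 0.0892.

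Single wells often held several of the ligands in *Renin*-null mice. Of the 83 *Renin*-null wells of sufficient depth, 59 (71.1%, 60.1 to 80.5) held at least 1 member and 32 (38.6%) at least 2, with at most 6 in a well. Of the 48 such WT wells, 11 (22.9%, 12.0 to 37.3) held at least 1 and 3 at least 2, with at most 3. The well with 6 members was 1 of a near-identical pair and had over 9000 detected genes. Depth differed between wells with and without a member in WT and in YFP2. WT wells with a member had a median of 11278526 counts and those with none 1362237. The medians were 5833273 and 4418102 in *Renin*-null wells, with 4364436 and 4489322 in YFP1 and 6382994 and 2978316 in YFP2. Among wells with at most 25% mitochondrial counts, 9 of 15 WT wells (60%, 32.3 to 83.7) and 43 of 57 *Renin*-null wells (75.4%, 62.2 to 85.9) held at least 1 member.

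**Figure D5:**
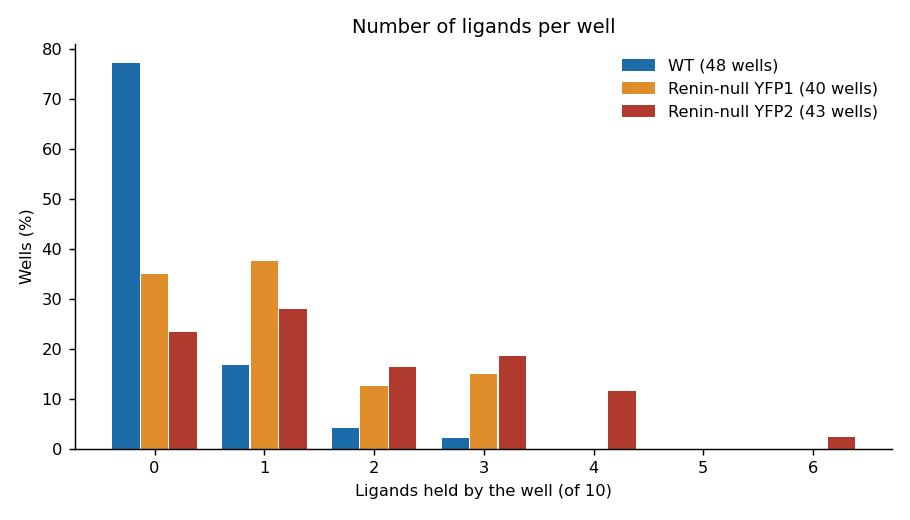
Percent of wells by the number of the 10 ligands they held, for the 48 WT, 40 YFP1 and 43 YFP2 wells of sufficient depth. In WT 37 of 48 wells held none, while 26 of 40 YFP1 and 33 of 43 YFP2 wells held at least 1.

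Of the 83 *Renin*-null wells of sufficient depth, 49.4% held *Angpt2*, 22.9% *Angpt4*, 18.1% *Pgf* and 9.64% *Fgf2*. Overlaps have to be read beside these shares, and whether they exceed them was not tested. *Angpt2* and *Angpt4* were found together in 15 *Renin*-null wells, which were 36.6% of the 41 wells with *Angpt2* and 78.9% of the 19 wells with *Angpt4*. With near-identical wells counted once, 14 wells held both. *Pgf* occurred with *Angpt2* in 10 wells, which were 66.7% of the *Pgf* wells and 24.4% of the *Angpt2* wells. It occurred with *Angpt4* in 8 wells and with *Fgf2* in 5 of the 8 *Fgf2* wells. *Vegfa* and *Angpt2* shared 1 well. The single WT well with *Pgf* held *Angpt2* and *Angpt4* too, at 745, 751 and 1022 CPM, and the single WT well with *Vegfb* also held *Angpt1*. These counts are descriptions of wells, which share mice and captures.

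For the ligands found in at least 20% of wells of sufficient depth, the genes of most similar pattern were sought over 79 *Renin*-null wells, with near-identical wells counted once, among 2427 genes. *Angpt2* was most similar to *Hspb2*, *F2r* and *Hrc*, with a Spearman rho of 0.54, 0.53 and 0.52. *Hspb2* encodes a small heat shock protein of muscle, *F2r* the thrombin receptor PAR1 and *Hrc* a calcium-binding protein of the sarcoplasmic reticulum. *Angpt4* was most similar to *Des*, which encodes the muscle filament desmin, *Col12a1*, a collagen gene, and *Ankrd11*, a gene for a chromatin regulator, each at a rho of 0.40. Of the 17 wells with *Angpt4* among the 79, 7 held *Des*, 14 *Col12a1* and 9 *Ankrd11*, against 19, 42 and 27 of all 79. The named genes are the highest of 2427 values, and whether unrelated genes would reach such a rho was not tested. The rho of *Angpt2* and *Angpt4* with the depth of the well was -0.19 and -0.21, and that with its mitochondrial share 0.26 and 0.08. No ligand reached 20% of the wells in WT.

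WT wells with a few counts of a ligand were looked at by their sequencing index. For the 6 ligands whose top WT well had at least 1000 counts, WT wells that share an index with that top well had a count in 60 of 87 cases (68.97%), and wells that share none in 33 of 213 (15.5%). In YFP1 these shares were 37.1% with a common index and 50.3% without, and in YFP2 50.0% and 58.3%. Pooled over ligands, a count of any size was thus more frequent in WT wells with a common index, and in neither *Renin*-null library. The pooled cases are not separate observations, because a well enters once for each ligand. In WT *Pgf* and *Angpt2* had the same top well, as did *Vegfb* and *Angpt1*. In YFP2 this held for *Vegfa* and *Fgf2*. Single ligands in YFP2 went both ways. *Vegfd* had a count in 13 of 14 wells with a common index and in 15 of 33 without. For *Angpt4* these were 11 of 14 and 22 of 33, and for *Angpt2* 13 of 14 and 30 of 33. The shares of *Vegfa*, *Vegfc*, *Pgf*, *Angpt1* and *Fgf2* in YFP2 were lower with a common index. The part of index exchange in these counts was not tested.

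The receptors of these ligands were followed as a list of 12 genes. At least 2-fold higher in *Renin*-null wells were 6 and lower was 1, against 52.4% and 18.5% of all genes, with a median log2 ratio of 2.11. In both libraries, 4 were higher (*Kdr*, *Tek*, *Met* and *Fgfr3*) and 1 lower (*Fgfr2*), where 33.3% and 15.8% of all genes were. Most were scarce. Per length, *Nrp1*, a co-receptor of VEGF, was the most abundant receptor in *Renin*-null wells at 145.9, against 89.2 for *Fgfr1*, while in WT *Fgfr1* had 139.6 and *Nrp1* 117.

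*Nrp1* was held by 20 of 51 WT and 40 of 96 *Renin*-null wells and had 369 and 438 CPM, a log2 ratio of 0.25 with -0.78 in YFP1 and 0.76 in YFP2. *Fgfr1*, a receptor of FGF2, had 260 and 158 CPM, but 80.04% of the *Renin*-null counts lay in 1 well, and the log2 ratio was -3.01 in YFP1 and 0.02 in YFP2. *Fgfr2*, a related receptor, had 100.2 CPM in WT wells and 13.4 CPM in *Renin*-null wells, a log2 ratio of -2.90 (-2.94 to -2.85), with 7 wells holding it in WT and 8 in *Renin*-null.

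The endothelial receptors were low in both genotypes. *Kdr* had 2.57 CPM in WT wells and 26.6 CPM in *Renin*-null wells, with 99.2% and 67.1% of the counts in 1 well. *Flt1* had 6.01 and 10.1 CPM, with a log2 ratio of -0.93 in YFP1 and 1.41 in YFP2. *Nrp2* had 2.24 and 4.04 CPM and *Tie1*, the TEK-related receptor, 1.48 and 1.00 CPM. *Flt4*, *Tek*, *Met* and *Fgfr4* had 0 counts in WT and were at least 182-fold, 46.0-fold, 193-fold and 282-fold higher in *Renin*-null wells. There *Flt4*, *Tek* and *Fgfr4* were each held by 1 well and *Met* by 5. In YFP1 and YFP2 *Flt4* had 0.0220 and 5.05 CPM, and *Fgfr4* 0 and 7.84 CPM. *Tek* had 0.116 and 1.18 CPM, and *Met* 1.83 and 3.85 CPM. *Fgfr3* had 1 count in WT and 16.2 CPM in *Renin*-null wells, a log2 ratio of 11.65 (9.17 to 16.95), from 2 wells. Its level was 35.5 CPM in YFP1 and 0.133 CPM in YFP2.

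The endothelial list of 6 genes summed to 176 CPM in WT, where *Cdh5*, *Plvap* and *Egfl7* were at 0 and *Ehd3* had the highest CPM at 148. It summed to 23.7 CPM in YFP1 and 483 CPM in YFP2, where 4 wells reached 1000 CPM, with *Emcn* highest at 292 CPM. The part of endothelial RNA in the receptor levels was not tested.

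Genes that process or release these ligands formed a list of 12, of which 10 had a ratio. Of these, 6 were at least 2-fold higher in *Renin*-null wells and 2 lower, with a median log2 ratio of 2.61, where 52.4% and 18.5% of all genes were and the median was 1.17. *Plat*, which encodes tissue plasminogen activator, had 93.97 CPM in WT wells and 376 CPM in *Renin*-null wells, but 3.30 CPM in YFP1 and 687 CPM in YFP2, and 98.6% of the WT counts lay in 1 well. *Plau*, for urokinase, had 19 counts in WT and 22.0 CPM in *Renin*-null wells, 91.6% of it in 1 well. Its level was 46.5 CPM in YFP1 and 1.49 CPM in YFP2. *Spint2*, for an inhibitor of the proteases that activate HGF, had 1.65 and 37.4 CPM with 99.7% of the WT counts in 1 well, and *Pcsk7*, for a proprotein convertase, had 46.9 and 5.15 CPM with 95.6% of the WT counts in 1 well. No gene of this list was held by 20% of the wells of either genotype.

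Other secreted angiogenic factors, 13 genes, had 8 at least 2-fold higher and 1 lower, with a median log2 ratio of 3.55, beside the 52.4%, 18.5% and 1.17 of all genes. *Ccn1* (formerly *Cyr61*) and *Ccn2* (formerly *Ctgf*), which encode matricellular proteins, were the broadest: *Ccn1* was held by 42 of 51 WT and 50 of 96 *Renin*-null wells at 824 and 721 CPM, and *Ccn2* had 172 and 150.4 CPM. *Fgf1* had 134 and 167 CPM, with a log2 ratio of 0.91 in YFP1 and -0.49 in YFP2. *Cxcl12*, a chemokine made by stromal and mural cells, was held by 1 WT well and 22 *Renin*-null wells and had 1.73 and 65.3 CPM, a log2 ratio of 5.24 (5.09 to 5.40), with 4.10 in YFP1 and 5.78 in YFP2. *Angptl4*, for an angiopoietin-like lipase inhibitor, had 20.4 and 4.69 CPM, the WT counts being 99.4% from 1 well.

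Inhibitors of angiogenesis, 13 genes, had 6 at least 2-fold higher and 3 lower, with a median log2 ratio of 0.99, near the 52.4%, 18.5% and 1.17 of all genes. *Timp3*, *Col18a1* and *Adamts1* differed by less than 2-fold. *Timp3*, for a tissue inhibitor of metalloproteinases that also blocks VEGF binding to KDR, had 1128 CPM in WT wells and 816 CPM in *Renin*-null wells, and *Col18a1*, whose product releases endostatin, had 415 and 748 CPM. *Adamts1*, for a matrix protease that binds VEGF, had 443 and 661 CPM and was held by 16 of 51 and 51 of 96 wells. *Thbs2*, for thrombospondin 2, had 84.04 CPM in WT, 74.7% of it in 1 well, and 0.218 CPM in *Renin*-null wells, where no well held it. *Sema3f*, for a semaphorin that binds NRP2, had 0.167 and 16.6 CPM and was held by 6 *Renin*-null wells.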

How the data were processed

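Single sorted cells (51 WT, 96 *Renin*-null wells) were profiled by full-length RNA sequencing. The submitters' processing notes name FastQC 0.11.5, Trimmomatic 0.39 and Salmon 0.11.2. The authors quantified reads on GRCm38/ENSEMBL, summed transcripts to genes with tximport (lengthScaledTPM) and deposited expected counts, which scale with transcript length and are not normalized for depth. The 10x experiment was not analysed here, and the values of some marker genes are not reported here.

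The expected counts were rounded to whole numbers and summed per genotype, scaled to CPM and compared as a log2 ratio, with no test, since no mouse or capture is named per well. For a genotype at 0, 3 counts over its wells were used as the floor, and where both genotypes had 3 or fewer no ratio was formed. Sums have exact Poisson intervals, ratios exact conditional intervals and shares Clopper-Pearson intervals (95%). Depth was 3628 to 17124854 counts per well. The mitochondrial share was taken over 13 genes. Well pairs with a correlation of at least 0.95 were called near-identical. No doublet caller was run. The calculation was tested on simulated data. For the ratios, every simulated well was drawn from a shared expression profile. Differences between wells of a genotype were left out, so this does not test how they affect the ratios.

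The members and gene lists were chosen with earlier results of these data known. All members and receptors are named, and from the other lists the 3 genes of highest CPM and those of largest and smallest ratio among genes of at least 10 CPM. For likeness, the 3 genes of highest Spearman rho are named. The alternatives were another level, scaling or choice of wells. Software was Python 3.11.15 (numpy 2.4.6, pandas 2.3.3, scipy 1.17.1, matplotlib 3.10.9) and R 4.3.3 (edgeR 4.0.16 for TMM factors only, Seurat 5.3.0, sctransform 0.4.2).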

Additional observations from a re-analysis of the deposited data

How the results depend on the processing

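The number of members at least 2-fold higher in *Renin*-null wells (4 as reported) was 7 with the mean over wells of CPM, 7 with SCTransform, 7 in wells thinned to 100000 counts, 8 with the highest well of each gene left out, 2 with the difference of mean log2(CPM + 1), 2 in YFP1 alone and 6 in YFP2 alone. The number at least 2-fold lower (2 as reported) was 1 with wells rich in other-cell markers left out. It was 0 with the mean over wells, SCTransform, the difference of mean log2 values, the highest well left out and thinned wells. The share of all genes past 2-fold is not given for these alternatives, so the counts are no result about the ligands as a set. The median of all genes moved too, as given next. The median log2 ratio was 0.88 over the members and 1.17 over all genes. These 2 medians were 2.17 and 1.75 with the mean over wells, 2.13 and 1.67 with SCTransform, and 2.24 and 1.43 in thinned wells. They were 3.27 and 1.89 with the highest well left out, 1.33 and 1.13 without wells of over 9000 genes, and 1.32 and 0.98 in YFP2. In YFP1 they were -0.46 and 0.71, and with TMM factors (0.784 for WT and 1.28 for *Renin*-null) 0.18 and 0.47. They were 0.72 and 1.01 without mitochondrial counts, and 0.68 and 0.13 with the difference of mean log2 values. In wells within the depth, gene and mitochondrial limits they were 0.64 and 1.11. They were 0.96 and 0.92 without wells rich in other-cell markers, and 1.01 and 1.15 without podocyte-rich wells. The sign turned for *Angpt4* with the mean over wells (0.27), SCTransform (0.27), the difference of mean log2 values (0.78) and thinned wells (0.32), for *Vegfb* with the difference of mean log2 values (0.21) and the highest well left out (1.14), and for *Fgf2* and *Pgf* in YFP1 (-0.47 each). *Angpt1* (0.04) was below 0 in 7 of 15 alternatives, down to -0.88. The ratio of *Vegfa* lay between 0.59 and 8.61, that of *Angpt2* between 0.80 and 3.34, over 15 alternatives each. *Vegfa*, *Angpt2*, *Vegfc* and *Vegfd* stayed above 0 in all alternatives that gave a value. Leaving out wells by mitochondrial share for the shares, or by markers of other cells, was chosen after seeing the data. No paired analysis was possible because the labels tie no WT well to a *Renin*-null well by mouse or capture. The number of wells with low mitochondrial share in WT (15) limits the shares, and the floor of 3 counts is 0.0152 CPM in WT. The causes of these differences were not tested.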

Other observations

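Heparan sulfate proteoglycans, which hold VEGF and FGF ligands near the cell surface, formed a list of 7 genes. All but *Sdc1* were at least 2-fold higher in *Renin*-null wells (6 of 7, median log2 ratio 1.45), and 3 were so in both libraries, where 52.4% and 33.3% of all genes were and the median of all genes was 1.17. *Sdc4*, for syndecan 4, had 373 CPM in WT wells and 5197 CPM in *Renin*-null wells, a log2 ratio of 3.80 (3.79 to 3.81) that was 3.25 in YFP1 and 4.14 in YFP2. It was held by 13 of 51 WT and 82 of 96 *Renin*-null wells, and the median well had 6.21 and 832 CPM. *Sdc2* had 39.6 and 108 CPM, with 94.7% of the WT counts in 1 well. *Sdc1* had 195 and 82.9 CPM, a log2 ratio of -1.23 (-1.25 to -1.21), which was -2.95 in YFP1 and -0.57 in YFP2, with 50.9% of the WT counts in 1 well.

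Of 6 genes of oxygen sensing, which controls *Vegfa* transcription in many cells, 2 were at least 2-fold higher and 2 lower in *Renin*-null wells, where 52.4% and 18.5% of all genes were. *Epas1*, for HIF-2α, was held by 45 of 51 WT and 45 of 96 *Renin*-null wells, at 440 and 563 CPM, with a log2 ratio of -0.22 in YFP1 and 0.70 in YFP2, and *Hif1a* had 36.0 and 56.98 CPM, with a log2 ratio of 1.38 in YFP1 and -0.45 in YFP2. *Vhl*, for the factor that marks HIF proteins for degradation, had 212 CPM in WT wells and 0.722 CPM in *Renin*-null wells, a log2 ratio of -8.20 (-8.37 to -8.03). It was held by 8 WT wells, 50.1% of the counts being in 1 of them, and by 3 *Renin*-null wells.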
